A study of Mus musculus with 15 samples.

Results

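The proteasome genes were followed through the inhibitor treatments of primary mouse chondrocytes, the cells that build cartilage. They were chosen by name, as every gene whose symbol in the probe annotation begins with Psma, Psmb, Psmc, Psmd, Psme or Psmg followed by a digit. The rule found 49 of the 18195 genes on the array, with 100 of its 45101 probe sets, a probe set being a group of short probes that together read 1 transcript. Psmc3ip, which encodes a partner of the meiotic recombinases, and Psme3ip1, which encodes a protein that binds an activator, meet the rule by name only and are not subunits. Of the 49 genes, 48 reached a mean signal of 50 in at least 1 group and were tested, through 74 probe sets. The 1 gene left out, Psmb11, encodes a catalytic subunit of the thymic cortex and had signals between 2.87 and 12.3 on all arrays. Psma8, Psmb8 and Psmb9 passed this filter through 1 group each, so that counts over the 48 genes are a description and not a support.

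The cells were a mixed primary culture, kept in monolayer, from the tibiae, femurs and humeri of CD1 mice taken at embryonic day 15.5. All groups received fresh medium with 0.25 mM ascorbic acid and 1 mM β-glycerophosphate and were harvested after 24 hours. There were 5 groups of 3 arrays: the vehicle DMSO, 10 µM LY294002, which blocks the lipid kinase PI3K, 10 µM UO126, which blocks the kinase MEK, 10 µM SB202190, and trichostatin A (TSA), which blocks histone deacetylases and whose dose unit is unclear in the labels. SB202190 is usually described as a p38 inhibitor, although the series lists it beside UO126 as an inhibitor of the MEK/ERK pathway. The study describes 3 independent experiments for DMSO and LY294002, but the labels name no shared culture for arrays of the same number. Signals are MAS5 values on a linear scale, given per array in the order of the replicate number, and log2 changes are limma estimates ± SE from n = 3 arrays per group. Adjusted p values are those of limma after Benjamini-Hochberg adjustment over all 21765 probe sets tested in a comparison, and a gene was called when its adjusted p was under 0.05. Each gene was read from its probe set with the highest mean log2 signal, and signals of different genes are not compared with each other.

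The arrays were alike in their overall signal, with medians between 29.8 and 39.96 and between 40.9% and 44.96% of the probe sets at a signal of 50 or more. Chondrocyte markers were present, since all 8 markers listed had means of at least 50 in every group. With TSA 7 of these 8 fell, all but Col2a1, and their summed signal was 13607 to 15549.5 against 19641 to 29804 with DMSO. All 4 skeletal muscle markers and all 3 osteoblast markers tested fell with TSA as well. Of 9 markers of macrophages and leukocytes 4 were tested, of which Cd68 rose and Lyz2, Cd14 and Csf1r fell with TSA. The markers not tested, Ptprc, Tyrobp, Aif1, C1qa and C1qb, stayed under a mean of 50 in every group. The summed signal of the 9 was 496 to 579 with TSA against 558 to 669 with DMSO. Of 4 endothelial markers 1 was tested, with a summed signal of 82.8 to 131 with TSA against 98.3 to 138 with DMSO. The part of these shifts in the proteasome results was not tested, and in bulk cultures fewer cells of a type and less RNA per cell cannot be told apart.

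The proteasome degrades proteins that carry ubiquitin chains. Its core particle is a barrel of α and β rings whose catalytic β subunits cut the protein, and a regulatory particle with a base of ATPases and a lid recognizes, unfolds and feeds the substrate. Immune cells and cells exposed to interferon exchange the standard catalytic subunits for immunoproteasome subunits, which shape the peptides presented by class I molecules. In cartilage the proteasome is known for turnover of signalling proteins and transcription factors that control chondrocyte maturation.

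TSA raised some subunits and lowered others. Psmd4, the ubiquitin receptor of the base, rose 2.16-fold, and of the immunoproteasome genes Psmb10 fell 5.16-fold. Psmb9, whose DMSO signals lay under 50 and which passed the filter through TSA, was 2.13-fold higher when signals under 50 were set to 50. In total 21 of the 48 genes were called, 17 higher and 4 lower. This is 43.8% of the genes, against 58.9% of all 11752 genes tested in this comparison. By direction, 35.4% of the proteasome genes were called higher, against 30.6% of all genes, and 8.33% were called lower, against 28.4% of all genes. All TSA arrays lay above all DMSO arrays in 18 of the 48 genes (37.5%), against 33% of all genes, and below them in 5 (10.4%), against 30.3% of all genes. The median log2 change of the 48 genes was 0.12, against 0.0013 over all genes.

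**Figure D1:**
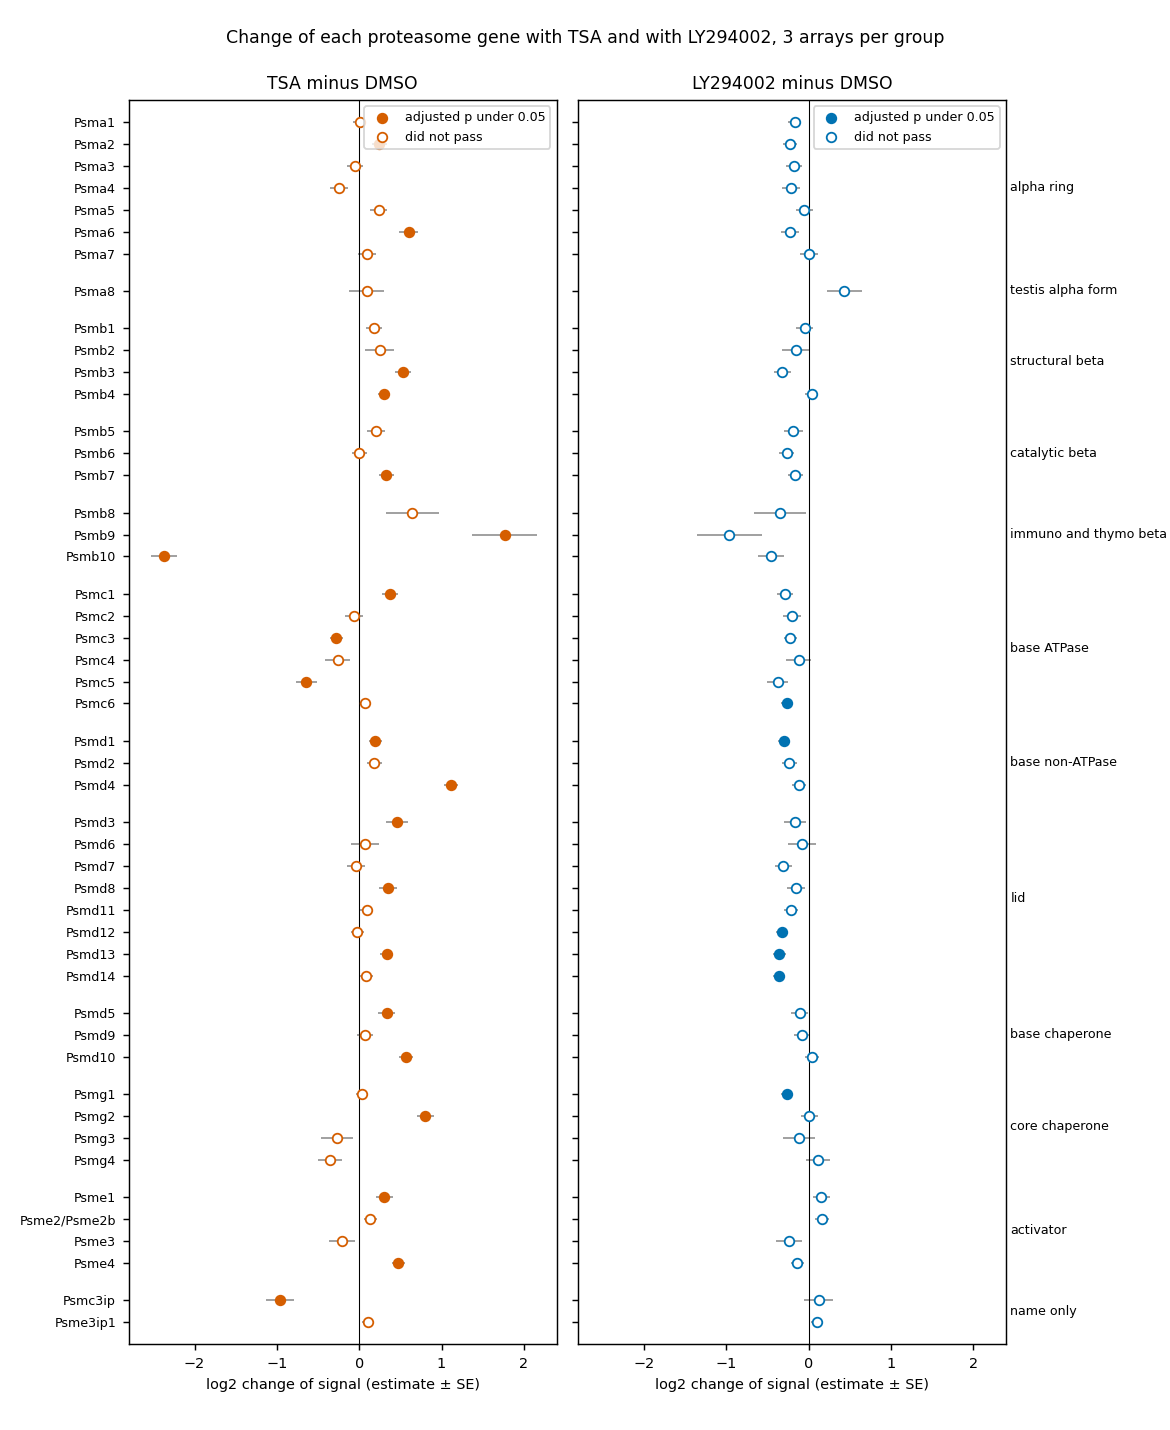
The log2 change of signal (estimate ± SE, x axis) is plotted for each of the 48 proteasome genes, grouped by role, for TSA (left) and LY294002 (right) against DMSO, with filled points for adjusted p under 0.05. With TSA the filled points lie on both sides of 0, from -2.37 for Psmb10 to 1.77 for Psmb9, whose DMSO signals lay under 50, whereas with LY294002 all 6 filled points lie below 0.

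Among the standard core subunits 5 of 14 rose with TSA, where 30.6% of all genes were called higher, and none fell, where 28.4% were called lower. Psma6, an α ring subunit, had signals of 2134, 2147 and 2028 with DMSO and of 3283, 3353 and 2936 with TSA. All TSA arrays lay above all DMSO arrays, and the log2 change was 0.60 ± 0.11 (1.52-fold, limma adjusted p = 0.000294). The probe set used for Psma6 is of a type that can share probes with other transcripts, and a second one also rose, by 0.57 ± 0.092 on the log2 scale (limma adjusted p = 8.3e-05), while the last one, at 0.50 ± 0.35, did not pass. Psma2, another α ring subunit, rose by 0.25 ± 0.086 on the log2 scale with 1 TSA array below the highest DMSO array, and its call was lost without DMSO array 1, TSA array 1 or TSA array 2. The other α ring subunits, Psma1, Psma3, Psma4, Psma5 and Psma7, had estimates from -0.24 for Psma4 to 0.23 for Psma5, and none passed the test. Psma8, the form of testis, gave 42.7, 40.2 and 34.7 with DMSO and 41.2, 46.6 and 37.3 with TSA, groups that overlapped at signals under 50. With LY294002 it gave 58.1, 54.96 and 46.0, all above DMSO, with an estimate of 0.43 ± 0.21 that did not pass the test (limma adjusted p = 0.225). Psma8 passed the filter through LY294002 alone, so that its place above the other groups is set by the filter.

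The structural β subunit Psmb3 gave 968, 952 and 1048 with DMSO and 1619, 1408 and 1296 with TSA. The groups did not overlap, and the log2 change was 0.54 ± 0.097 (1.45-fold, limma adjusted p = 0.000237). Psmb4, which also has no active site, rose by 0.30 ± 0.078 on the log2 scale (limma adjusted p = 0.00388). The other two structural β subunits, Psmb1 and Psmb2, had estimates of 0.18 ± 0.10 and 0.25 ± 0.17 that did not pass the test.

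Of the standard catalytic subunits, Psmb7, the trypsin-like site, was the 1 that rose with TSA. Its signals were 2680.1, 2748 and 3150.4 with DMSO and 3696, 3825 and 3261 with TSA, without overlap, a log2 change of 0.33 ± 0.092 (limma adjusted p = 0.00659). Psmb5, the chymotrypsin-like site, gave 1650.5, 1858 and 2062 with DMSO and 2244, 2275 and 1888 with TSA. These groups overlapped, and the estimate of 0.20 ± 0.11 did not pass the test (limma adjusted p = 0.134). Psmb6, the caspase-like site, gave 1092, 1111 and 1037 with DMSO and 1250.3, 992 and 1019 with TSA, with an estimate of 0.0019 ± 0.09 (limma adjusted p = 0.988). The highest TSA array lay above and the other two below all DMSO arrays.

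Of the immunoproteasome subunits Psmb10 fell with TSA. Psmb8 and Psmb9 passed the filter through TSA alone, so that their higher signal with TSA is set by the filter and their values are a description. Psmb10, which replaces Psmb7, gave 288, 272 and 333 with DMSO and 69.7, 55.3 and 49.2 with TSA. Every TSA array was far below every DMSO array, and the fall was 5.16-fold, a log2 change of -2.37 ± 0.16 (limma adjusted p = 7.85e-09). Psmb9, which replaces Psmb6, gave 31.7, 30.1 and 32.3 with DMSO and 105, 95.7 and 121 with TSA. It was under a signal of 50 on all DMSO arrays and above it on all TSA arrays, with a log2 estimate of 1.77 ± 0.40 (limma adjusted p = 0.00142) that is no exact fold, since it is taken against signals under 50. With all signals under 50 set to 50 the change was 1.09. Psmb8, which replaces Psmb5, gave 35.3, 44.7 and 23.7 with DMSO and 64.1, 34.1 and 65.9 with TSA. Its groups overlapped through the second TSA array, and its estimate of 0.65 ± 0.32 did not pass the test (limma adjusted p = 0.101), and the call was gained without that array.

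The kinase inhibitors left Psmb10 on a higher level than TSA did. Its signals were 281, 189 and 191 with LY294002, 250.4, 267 and 243 with UO126 and 439.6, 374 and 386 with SB202190. All 3 SB202190 arrays lay above the DMSO arrays and all 3 UO126 arrays below them, but neither estimate passed the test (0.43 ± 0.16, limma adjusted p = 0.179, and -0.23 ± 0.16, limma adjusted p = 0.578). Psmb9 gave 13.8, 16.6 and 18.1 with LY294002, 3.49, 7.23 and 16.4 with UO126 and 51.1, 39.9 and 45.9 with SB202190. The LY294002 and UO126 arrays all lay below the DMSO arrays and the SB202190 arrays all above them, at signals mostly under 50. Psmb8 gave 32.0, 24.7 and 23.1 with LY294002, 27.5, 16.4 and 23.8 with UO126 and 49.8, 45.9 and 33.5 with SB202190, and each of these groups overlapped with DMSO. Signals under 50 are not ranked here, and Psmb8 and Psmb9 passed the filter through TSA alone, so that their place above the other groups is set by the filter.

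**Figure D2:**
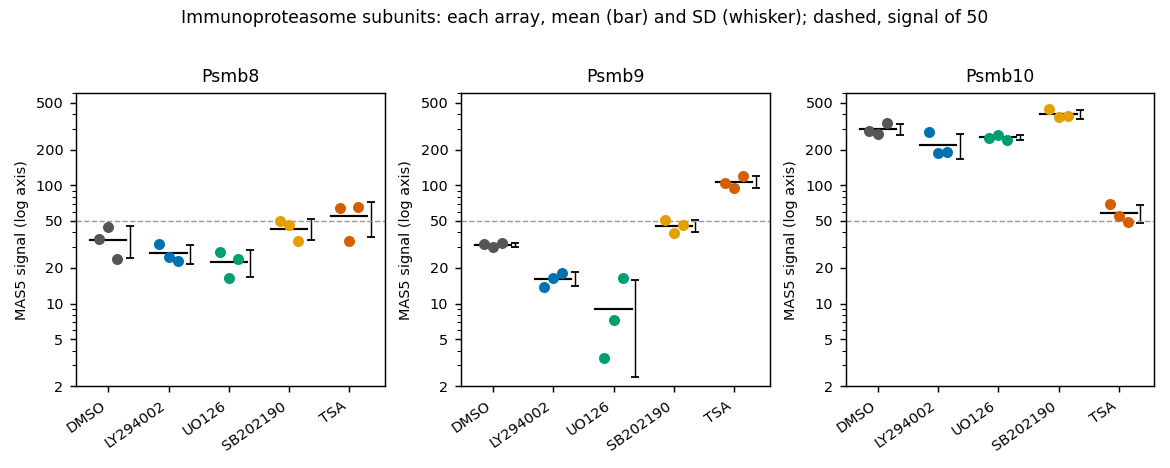
MAS5 signal (log axis) of Psmb8, Psmb9 and Psmb10 on each of the 15 arrays by treatment, with the group mean (bar), the SD (whisker) and the signal of 50 used in the filter (dashed line). Psmb9 lies above the line in all 3 TSA arrays, from 31.4 ± 1.14 with DMSO to 107 ± 12.7 with TSA (mean ± SD), the group through which it passed the filter. Psmb10 drops from 298 ± 32.0 to 58.0 ± 10.5.

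Directly tested against the kinase inhibitors, Psmb10 was lower with TSA than with LY294002, UO126 and SB202190, by 3.77-fold, 4.41-fold and 6.95-fold. The limma adjusted p values were 7.99e-08, 2.11e-08 and 1.63e-09. For Psmb9, which passed the filter through TSA alone, the log2 differences with signals under 50 set to 50 were 1.09 against LY294002, 1.09 against UO126 and 1.08 against SB202190, given with no test. For Psmb8, also passed through TSA alone, all were 0.25.

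Psmb9 lies head to head with Tap1, which encodes a subunit of the transporter that carries peptides to class I molecules. In the RefSeq annotation of GRCm38.p6 both start on chromosome 17, on opposite strands, with 225 bases between the starts. Tap1 had signals of 49.6 to 64.4 over the DMSO arrays and of 44.1 to 51.7 over the TSA arrays, and an estimate of -0.31 ± 0.22 that did not pass the test (limma adjusted p = 0.246). The bases between the starts are shown because Psmb9, which passed the filter through TSA alone, was higher with TSA and Tap1 was not called. Those before the start of Psmb10 are shown because that gene had the largest fall. They are written 5′ to 3′ on the minus strand, in the direction of Psmb9 and Psmb10, with matches to the motifs searched in capitals. The stretch next to Psmb9 (chr17:34187331-34187555) has 61.3% G and C and 1 match to CCAAT, read on the other strand. The 250 bases before Psmb10 (chr8:105938393-105938642) have 46.8% G and C and hold none of the motifs searched.
Psmb9 to Tap1: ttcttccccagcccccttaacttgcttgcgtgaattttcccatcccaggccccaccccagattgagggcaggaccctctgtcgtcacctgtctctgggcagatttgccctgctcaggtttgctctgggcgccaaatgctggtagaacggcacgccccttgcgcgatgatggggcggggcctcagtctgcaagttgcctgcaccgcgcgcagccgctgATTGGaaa
Psmb10: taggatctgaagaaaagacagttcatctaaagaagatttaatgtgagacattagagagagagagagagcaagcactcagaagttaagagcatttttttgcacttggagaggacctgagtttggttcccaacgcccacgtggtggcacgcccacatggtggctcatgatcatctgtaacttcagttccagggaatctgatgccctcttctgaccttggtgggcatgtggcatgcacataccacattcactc

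Of 11 genes of class I antigen processing on the array 10 were tested, and with TSA 3 rose and 2 fell, where 30.6% of all genes were called higher and 28.4% lower. H2-K1 and H2-D1, class I heavy chains, rose by 1.31 ± 0.12 and 1.76 ± 0.30 on the log2 scale (limma adjusted p = 1.72e-07 and 0.00014). B2m, their light chain, rose by 0.31 ± 0.072 (limma adjusted p = 0.00206). Erap1, which trims peptides in the endoplasmic reticulum, fell by 4.25-fold, a log2 change of -2.09 ± 0.14 (limma adjusted p = 6.58e-09), and Pdia3, which helps to load them, fell 1.99-fold (limma adjusted p = 0.00473). With LY294002 H2-K1 was the 1 gene called, at -0.51 ± 0.12 (limma adjusted p = 0.0147), and none was called with UO126 or SB202190. Over all genes 9.47% were called with LY294002, 3.45% with UO126 and 3.52% with SB202190.

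In the base of the regulatory particle TSA raised the ubiquitin receptor Psmd4 and lowered 2 of 6 ATPases. Over all genes 28.4% were called lower and 30.6% higher. Psmd4 gave 936, 905 and 1004 with DMSO and 2136, 2207 and 1827 with TSA. Every TSA array was above every other array of the study, and the rise was 2.16-fold, a log2 change of 1.11 ± 0.083 (limma adjusted p = 2.6e-08). The kinase inhibitors left Psmd4 between 822 and 1023, and TSA exceeded LY294002, UO126 and SB202190 by 1.23 ± 0.083, 1.03 ± 0.083 and 1.08 ± 0.083 on the log2 scale. Psmc5, an ATPase, gave 1205, 1304 and 1704 with DMSO and 878, 947 and 848 with TSA. All TSA arrays were below all DMSO arrays, a fall of 1.56-fold or a log2 change of -0.64 ± 0.13 (limma adjusted p = 0.000608).

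Of the other ATPases Psmc3 fell, from 1568, 1570.5 and 1761 with DMSO to 1304, 1413 and 1320.0 with TSA. The groups did not overlap, and the log2 change was -0.28 ± 0.08 (limma adjusted p = 0.00772). Psmc1 rose by 0.38 ± 0.098 (limma adjusted p = 0.00401) and was higher on all TSA arrays than on all DMSO arrays, so that subunits of the same ATPase ring moved in opposite directions. Psmc2 and Psmc4 had estimates of -0.065 ± 0.11 and -0.26 ± 0.16 that did not pass the test. The scaffold subunit Psmd1 rose by 0.20 ± 0.075 (limma adjusted p = 0.035), a call lost without each of DMSO arrays 1 and 2 and each of the TSA arrays. Its fellow scaffold Psmd2 had an estimate of 0.19 ± 0.089 that did not pass the test.

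The start of Psmd4 is shown because this gene rose most among subunits measured well above a signal of 50. The 250 bases before it (chr3:95042615-95042864 of GRCm38.p6, minus strand, from RefSeq) are written 5′ to 3′ in the direction of the gene. The capitals mark a match to CCAAT and a match to GAAA repeated after any 2 bases, both read on the other strand and not overlapping.
Psmd4: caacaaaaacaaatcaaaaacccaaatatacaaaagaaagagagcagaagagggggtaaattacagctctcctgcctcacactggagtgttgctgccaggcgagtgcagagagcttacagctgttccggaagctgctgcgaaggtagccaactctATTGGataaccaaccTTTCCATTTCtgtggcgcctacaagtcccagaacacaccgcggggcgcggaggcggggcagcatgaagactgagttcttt

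The 3 motifs were searched on both strands of RefSeq windows that reach from 250 bases before to 50 bases after a start, 46 of them for 42 proteasome genes. The core of the antioxidant response element, TGACNNNGC, was in 6 of the 46 windows (13%), against 12.4% of all 32851 windows. They belong to Psmb5, Psmb6, Psmc6, Psmd9, Psmd12 and Psme4. CCAAT, the box bound by NF-Y, was in 16 windows (34.8%), against 37.4% of all. The core of the interferon-stimulated response element, GAAA repeated after any 2 bases, was in 5 windows (10.9%), those of Psmb3, Psmd4, Psmd9, Psme1 and Psmg4, against 3.44% of all. The windows of the immunoproteasome genes Psmb8, Psmb9 and Psmb10 did not hold the interferon motif in these letters. Windows for Psma8, Psmb1, Psmb2, Psmb7, Psmc3, Psmd3, Psmd7 and Psmg2 were not analysed here.

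The lid, which holds the deubiquitinase Psmd14, had 3 of 8 subunits higher with TSA, where 30.6% of all genes were called higher, and none lower. Psmd3 gave 851, 1122 and 1108 with DMSO and 1517, 1383 and 1302 with TSA, without overlap, a log2 change of 0.46 ± 0.13 (limma adjusted p = 0.0083). Psmd8 rose by 0.35 ± 0.11 (limma adjusted p = 0.0116), which did not pass without DMSO array 1. Psmd13 rose by 0.33 ± 0.079 (limma adjusted p = 0.00207) in the probe set used, and its probe sets differed, as given further on. Psmd14 itself had an estimate of 0.087 ± 0.075, and Psmd6, Psmd7, Psmd11 and Psmd12 had estimates of 0.07 ± 0.17, -0.04 ± 0.11, 0.089 ± 0.081 and -0.022 ± 0.075, none of which passed the test.

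Of 7 assembly chaperones 3 rose with TSA and none fell, with a median log2 change of 0.071 against 0.12 over the 48 genes, and 30.6% of all genes were called higher. Psmg2, a chaperone of the α ring, gave 812, 704 and 759 with DMSO and 1238, 1225 and 1516 with TSA. The groups did not overlap, and the rise was 1.74-fold, a log2 change of 0.80 ± 0.10 (limma adjusted p = 9.85e-06). Its partner Psmg1 had an estimate of 0.032 ± 0.073 (limma adjusted p = 0.741). Psmd10, a chaperone of the base that is also known as gankyrin, gave 294, 268 and 251 with DMSO and 412, 388 and 406 with TSA. These groups were also apart, with a log2 change of 0.57 ± 0.084 (1.49-fold, limma adjusted p = 3.15e-05). Psmd5, also a base chaperone, rose by 0.33 ± 0.11 (limma adjusted p = 0.0136), which did not pass without DMSO array 2 or TSA array 1. Psmd9, the other base chaperone, had an estimate of 0.071 ± 0.096 that did not pass the test. Psmg3 and Psmg4, which act together on the α ring, had estimates of -0.27 ± 0.19 and -0.35 ± 0.15 that did not pass the test, with Psmg4 below DMSO on all 3 TSA arrays.

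**Figure D3:**
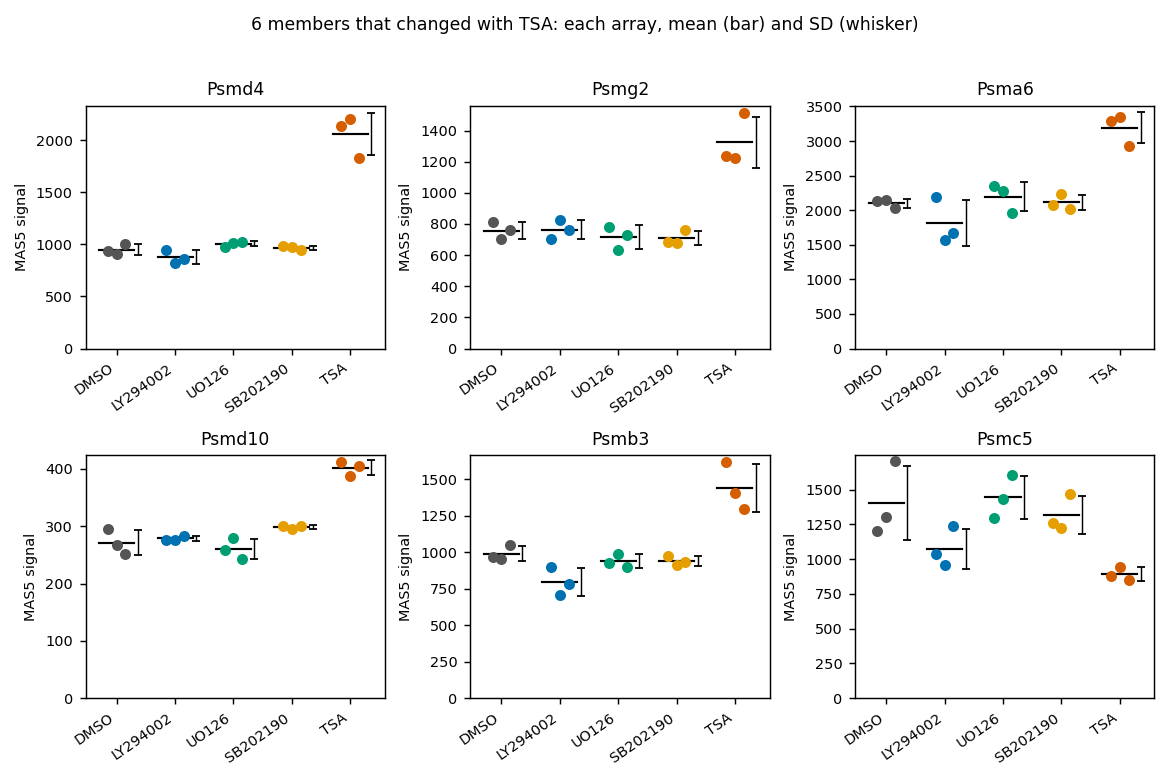
MAS5 signal (linear axis from 0) of Psmd4, Psmg2, Psma6, Psmd10, Psmb3 and Psmc5 on each of the 15 arrays by treatment, with the group mean (bar) and SD (whisker). In the first 5 panels the TSA arrays stand above all others, as for Psmd4 with 2057 ± 202 against 948 ± 51.0 with DMSO, and in the panel of Psmc5 they stand below all others.

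Activators cap the core particle and open its gate. Psme4, an activator that binds acetylated histones and acts in the nucleus, gave 855, 782 and 855 with DMSO and 1077, 1138 and 1256 with TSA. The groups did not overlap, and the log2 change was 0.48 ± 0.079 (1.39-fold, limma adjusted p = 0.000109). Psme1, a subunit of the activator induced by interferon, gave 854, 825 and 709.5 with DMSO and 914, 1034 and 1001 with TSA. The TSA arrays were all higher, with a log2 change of 0.31 ± 0.10 (limma adjusted p = 0.0173) that did not pass without DMSO array 3 or TSA array 2. The probe set listed for both Psme2, the partner of Psme1, and its copy Psme2b gave 795, 805 and 700.0 with DMSO and 813, 833 and 876 with TSA. The groups were apart by little, the estimate of 0.14 ± 0.082 did not pass the test, and the 2 genes cannot be told apart here. Psme3, a nuclear activator, gave 364, 434 and 559.6 with DMSO and 411, 393 and 353 with TSA, groups that overlapped, with an estimate of -0.21 ± 0.16.

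Of the 2 genes that share only the name, Psmc3ip fell with TSA, from 162, 131 and 179.9 to 84.8, 90.8 and 66.8. The groups were apart, with a log2 change of -0.96 ± 0.17 (limma adjusted p = 0.000235), and its second probe set fell alike. Psme3ip1 had an estimate of 0.10 ± 0.075 that did not pass the test.

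LY294002 lowered proteasome genes by small amounts. In total 6 of the 48 genes were called and all were lower, 12.5% of the genes against 3.84% of all genes called lower in this comparison and 9.47% called in either direction. The estimate from the probe set used was below 0 for 38 of the 48 genes (79.2%), against 48.7% of all genes. This held for 17 of the 17 subunits of the regulatory particle, of which 5 were called. In 15 of the 48 genes (31.2%) all LY294002 arrays lay below all DMSO arrays, against 12.6% of all genes. The median log2 change of the 48 genes was -0.17, against 0.0083 over all genes. No proteasome gene with a mean signal of 50 in either group changed by 1.4-fold in group means, against 10.3% of all genes. The count of 6 was 13 with the replicate number as a block, and it was 0 without LY294002 array 2, 1 without DMSO array 3, 2 without LY294002 array 3 and 3 without DMSO array 2. All of these calls were of lower signal, and in a fit of the 2 groups alone no gene was called.

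Psmd14, the deubiquitinase of the lid, had the lowest p of the 48 genes in this comparison. Its signals were 1734, 1675 and 1773 with DMSO and 1419, 1233 and 1395 with LY294002. The groups did not overlap, and the log2 change was -0.36 ± 0.075 (1.28-fold lower, limma adjusted p = 0.0101). Psmd13, also of the lid, gave 628, 625 and 654 with DMSO and 514, 464 and 514 with LY294002, a log2 change of -0.36 ± 0.079 (limma adjusted p = 0.0137). Psmd12, another lid subunit, gave 1118, 997 and 1077 with DMSO and 877, 828 and 848 with LY294002, a log2 change of -0.32 ± 0.075 (limma adjusted p = 0.0181). In each of these genes every LY294002 array was below every DMSO array.

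In the base, the scaffold Psmd1 gave 970.4, 1024 and 1105 with DMSO and 887, 789 and 840.0 with LY294002, a log2 change of -0.30 ± 0.075 (limma adjusted p = 0.0241). The ATPase Psmc6 gave 1481, 1385 and 1406 with DMSO and 1272, 1154 and 1141 with LY294002, a log2 change of -0.26 ± 0.068 (limma adjusted p = 0.0304). Outside the particle, the α ring chaperone Psmg1 gave 742, 733 and 685 with DMSO and 620.5, 594 and 590.5 with LY294002, a log2 change of -0.26 ± 0.073 (limma adjusted p = 0.0425). None of these groups overlapped, but the calls of Psmc6 and Psmg1 were lost in 9 of the 17 alternative settings each. With the block, Psmb3, Psmb6, Psmb10, Psmc1, Psmc3, Psmc5 and Psmd7 were called lower as well.

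The standard catalytic subunits all had estimates below 0 with LY294002. Psmb5 gave 1569, 1471 and 1868 and overlapped with DMSO, with an estimate of -0.18 ± 0.11 (limma adjusted p = 0.333). Psmb6 gave 967, 845 and 882, all below DMSO, with -0.27 ± 0.09 (limma adjusted p = 0.0797). Psmb7 gave 2578, 2499 and 2582, also all below DMSO, with -0.16 ± 0.092 (limma adjusted p = 0.31). None passed the test, and with the block Psmb6 did. Among the activators Psme1 and the probe set of Psme2 and Psme2b had estimates above 0, of 0.15 ± 0.10 and 0.16 ± 0.082, and Psme3 and Psme4 below it, of -0.24 ± 0.16 and -0.14 ± 0.079, and none passed the test. None of the chondrocyte, macrophage, endothelial, muscle and osteoblast markers was called with LY294002, against 9.47% of all genes. Their estimates were not all near 0. All 4 muscle markers were below 0, with a median log2 change of -0.54, and the endothelial marker Kdr was at -0.41. Of the 8 chondrocyte markers 7 were above 0, with a median of 0.18. The part of these shifts in the lower proteasome signals was not tested.

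**Figure D4:**
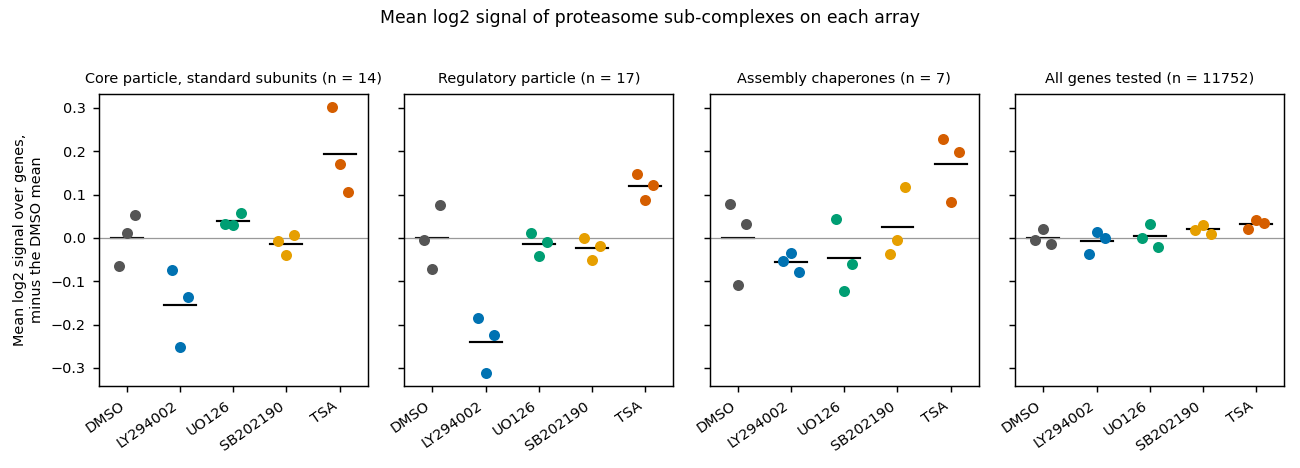
Mean log2 signal over the genes of a sub-complex on each array, as the difference from the DMSO mean (y axis), for 14 standard core subunits, 17 regulatory subunits, 7 assembly chaperones and all 11752 genes tested, with a bar at each group mean. For the regulatory particle the LY294002 arrays lie between -0.31 and -0.18 and the TSA arrays between 0.089 and 0.15, where without Psmd4 TSA arrays 2 and 3 fall inside the DMSO range, while the means over all genes stay between -0.036 and 0.042.

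The mean of the 17 regulatory subunits was lower on all LY294002 arrays than on all DMSO arrays. Relative to the DMSO mean it was -0.18, -0.31 and -0.22 on the log2 scale with LY294002, 0.15, 0.089 and 0.12 with TSA, and -0.0045, -0.071 and 0.075 on the DMSO arrays themselves. The TSA values rested on Psmd4, a leave-out chosen after seeing the data. Without it the mean of the other 16 was 0.084, 0.018 and 0.070 with TSA, of which 2 arrays overlapped with DMSO, where the highest array was at 0.075, and the LY294002 arrays stayed below DMSO, at -0.20, -0.32 and -0.23. Of the 17 regulatory subunits 6 rose and 2 fell with TSA, where 30.6% of all genes were called higher and 28.4% lower. The UO126 arrays (0.012, -0.041 and -0.010) and the SB202190 arrays (-0.00084, -0.050 and -0.018) lay within the range of DMSO. For the 14 standard core subunits the LY294002 arrays were at -0.074, -0.25 and -0.14 and the TSA arrays at 0.30, 0.17 and 0.11. All LY294002 arrays were below and all TSA arrays above the DMSO arrays, which ran from -0.064 to 0.052, and without Psma6 the groups still did not overlap, with TSA at 0.28, 0.13 and 0.076 and the highest DMSO array at 0.060.

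UO126 called 1 of the 48 genes, Psmb9 (2.08% of the genes against 3.45% of all genes). Its signals are given above and were under 50 on every DMSO and UO126 array, with a log2 change of -2.07 ± 0.40 (limma adjusted p = 0.00902). The change was 0 with signals under 50 set to 50, Psmb9 was not tested with a filter of 50 in 2 groups, and its call was lost in a fit of the 2 groups alone. With the replicate number as a block, which the main fit did not hold, 2 genes were called, the second being a rise of the activator Psme4. Psme4 was also the 1 gene called with a mean signal of 100 over all arrays as the filter, or with signals under 50 set to 50. Psme4 gave 1012, 1022 and 1021 with UO126, all above the DMSO arrays, with an estimate of 0.29 ± 0.079 (limma adjusted p = 0.0631 without the block and 0.0251 with it). The standard catalytic subunits Psmb5, Psmb6 and Psmb7 had estimates of 0.079 ± 0.11, 0.064 ± 0.09 and 0.054 ± 0.092, and none passed the test. Psme1, Psme2 with Psme2b, and Psme3 had estimates of -0.13 ± 0.10, -0.057 ± 0.082 and 0.10 ± 0.16, which did not pass the test either.

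SB202190 called none of the 48 genes in limma, against 3.52% of all genes, and 3 (6.25%) had an unadjusted p under 0.05, against 18.4% of all genes. These were Psmb10, Psme1 and the probe set of Psme2 and Psme2b. Psme1 gave 935, 998 and 994 with SB202190, all above the DMSO arrays, with an estimate of 0.30 ± 0.10 (limma adjusted p = 0.14). Psme2 with Psme2b gave 891, 922 and 1010.0, also all above DMSO, with 0.30 ± 0.082 (limma adjusted p = 0.0676). Both groups were apart from DMSO without passing the test. Psmb5, Psmb6 and Psmb7 had estimates of -0.062 ± 0.11, -0.11 ± 0.09 and -0.064 ± 0.092, none of which passed. Psme3 and Psme4 had estimates of 0.045 ± 0.16 and 0.088 ± 0.079. The comparisons with DMSO share the same 3 DMSO arrays, so that their values stand side by side and are not independent.

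TSA and the kinase inhibitors were compared directly. Against LY294002, 30 of the 48 genes were called, 27 higher and 3 lower with TSA, or 62.5% against 58.4% of all genes. Of the proteasome genes 56.2% were higher, against 29.4% of all genes, and 6.25% were lower, against 29% of all genes. The genes higher with TSA included 7 of the 8 lid subunits, 3 of the 3 standard catalytic subunits and 12 of the 17 subunits of the regulatory particle. Psmd14 exceeded its level with LY294002 by 0.45 ± 0.075 on the log2 scale (limma adjusted p = 0.000126), Psmd13 by 0.69 ± 0.079 (limma adjusted p = 2.67e-06) and Psmb3 by 0.86 ± 0.097 (limma adjusted p = 2.58e-06). The value of Psmd13 is that of the probe set used. Its 3 probe sets ran from -0.61 to 0.33 with TSA and from -0.40 to -0.30 with LY294002, each against DMSO. Against UO126, 21 genes were called, 17 higher and 4 lower, 43.8% against 59.6% of all genes (30.6% higher and 29% lower). Against SB202190, 18 genes were called, 14 higher and 4 lower, 37.5% against 56.9% of all genes (28.2% higher and 28.7% lower). Psmc5 was lower with TSA than with UO126 and SB202190, with log2 differences of -0.69 ± 0.13 and -0.56 ± 0.13 (limma adjusted p = 0.000303 and 0.00185), and was not called against LY294002 (-0.27 ± 0.13, limma adjusted p = 0.0979).

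Different probe sets of 1 gene did not always move together, which bears on 18 genes with more than 1 tested probe set. Of the 74 probe sets tested 28 were called higher and 5 lower with TSA. Over all 21765 probe sets tested 6118 were called higher (28.1%). For lower calls the share over all features is given by gene, 28.4%. For Psmd4 the second probe set rose with TSA by 1.05 ± 0.081 (limma adjusted p = 3.87e-08), while the other gave 83.3, 157 and 141 with DMSO and 120.1, 101 and 87.8 with TSA, an estimate of -0.27 ± 0.21 that did not pass. With the mean of its probe sets the change of Psmd4 was 0.63. For Psmc6 the probe set used had an estimate of 0.077 ± 0.068 with TSA, whereas the other two rose, by 0.67 ± 0.12 and 0.70 ± 0.18 (limma adjusted p = 0.000289 and 0.00361). For Psmd13 the 3 estimates with TSA were 0.33 ± 0.079, 0.19 ± 0.13 and -0.61 ± 0.33, of which the first passed, and the mean of the 3 gave -0.029. Both probe sets of Psmg2 rose, by 0.80 ± 0.10 and 1.19 ± 0.12. In Psma5, Psma7 and Psmd6 a second probe set was called higher with TSA and the one used was not.

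With LY294002 9 of the 74 probe sets were called lower, against 724 of all 21765 probe sets tested (3.33%). Of the 9, 3 were in genes whose probe set in use was not called. For Psme3 this second probe set gave 219.9, 199.7 and 302 with DMSO and 164, 132 and 115 with LY294002, without overlap, a log2 change of -0.80 ± 0.16 (limma adjusted p = 0.00661). For Psma1 it gave 48.8, 49.9 and 54.0 and 22.5, 30.5 and 32.4, around and below a signal of 50, a change of -0.85 ± 0.20 (limma adjusted p = 0.0162). For Psmc4 the change was -0.37 ± 0.099 (limma adjusted p = 0.0322). The genes' own estimates, from the probe sets used, were -0.24 ± 0.16, -0.17 ± 0.081 and -0.12 ± 0.16. Other probe sets weakened the falls. Of the 3 of Psmc6 only the 1 used was called, with estimates from -0.26 to 0.098, and the call was lost with their mean. Those of Psma6 ran from -0.23 to 0.41 and those of Psmd4 from -0.11 to 0.062. The 3 of Psmd13 ran from -0.40 to -0.30, with 1 called.

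**Figure D5:**
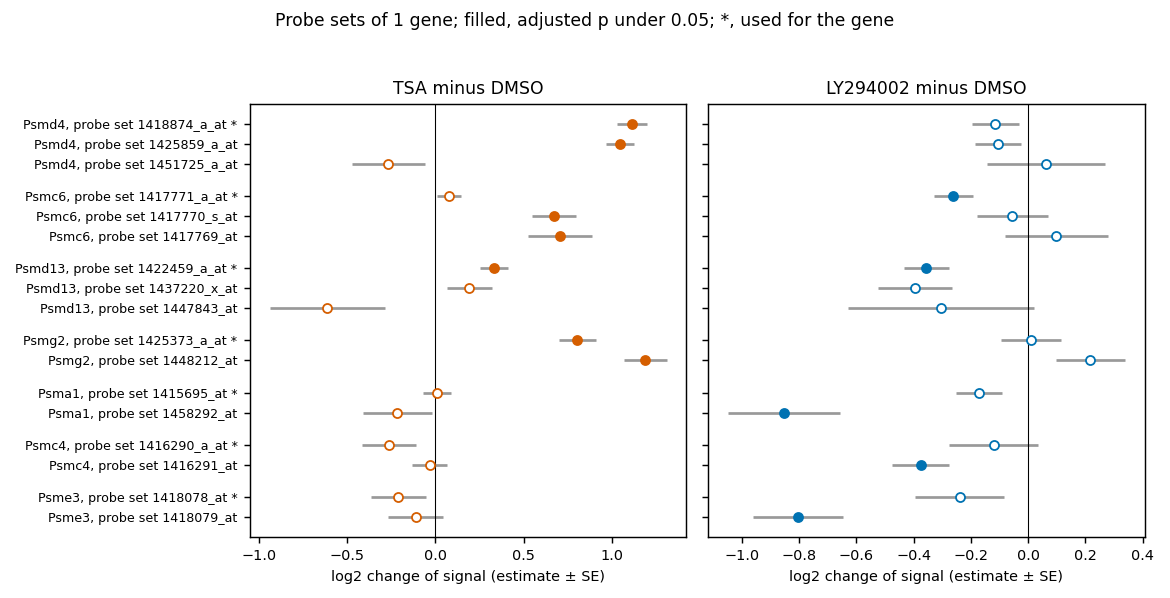
The log2 change of signal (estimate ± SE, x axis) with TSA (left) and LY294002 (right) against DMSO is plotted for every tested probe set of Psmd4, Psmc6, Psmd13, Psmg2, Psma1, Psmc4 and Psme3, with filled points for adjusted p under 0.05 and an asterisk for the probe set used for the gene. With TSA the probe sets of Psmd4 run from -0.27 to 1.11 and those of Psmd13 from -0.61 to 0.33, whereas both of Psmg2 are filled and above 0.

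Genes that work with the proteasome were read from lists. Of 11 partners tested 3 rose and 1 fell with TSA, where 30.6% of all genes were called higher and 28.4% lower. Zfand5, which stimulates the proteasome, rose by 0.72 ± 0.085 (limma adjusted p = 3.47e-06), and it was also the 1 partner called with LY294002, at 0.43 ± 0.085 (limma adjusted p = 0.00727). The ubiquitin ligase Ube3c and the deubiquitinase Uchl5, both bound to the regulatory particle, rose by 0.38 ± 0.10 and 0.37 ± 0.13, and Ecpas, an adaptor and scaffold, changed by -0.42 ± 0.10 (limma adjusted p = 0.00312). The assembly factor Pomp had an estimate of 0.013 ± 0.096 that did not pass. Of 10 shuttle factors and genes of the p97 segregase 4 rose, Ubqln2, Faf1, Rad23b and Ubqln1, by 0.69 ± 0.087, 0.49 ± 0.09, 0.39 ± 0.16 and 0.38 ± 0.08, and none fell, against the same shares of all genes. Vcp, the segregase itself, had an estimate of -0.19 ± 0.11 that did not pass. Of 2 activating enzymes tested, Uba3 of the NEDD8 pathway and Uba6 of the ubiquitin pathway, Uba6 rose by 0.53 ± 0.14 (limma adjusted p = 0.00501).

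Of 10 transcription factors listed as possible drivers of proteasome genes or as their partners 3 rose and 4 fell with TSA. Of all genes 30.6% were called higher and 28.4% lower. Nfe2l1, which is known to restore proteasome transcription when the complex is inhibited, had an estimate of -0.094 ± 0.11 that did not pass (limma adjusted p = 0.501). Nfe2l2, which binds the antioxidant response element, rose by 0.61 ± 0.10 (limma adjusted p = 0.000133), as did its small Maf partners Mafk, by 0.85 ± 0.19, and Maff, by 0.85 ± 0.22, while Mafg changed by -0.41 ± 0.13. The NF-Y subunits Nfya and Nfyc fell, with log2 changes of -0.78 ± 0.11 and -0.87 ± 0.095 (limma adjusted p = 1.58e-05 and 1.58e-06), and so did Foxm1, a factor of dividing cells, with -1.16 ± 0.16. With UO126 Nfe2l2 fell, at -0.46 ± 0.10 (limma adjusted p = 0.0238), and with SB202190 Mafg rose, by 0.60 ± 0.13 (limma adjusted p = 0.0223). None of the 10 was called with LY294002, where 9.47% of all genes were called.

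Of 15 chaperonin and heat shock genes 9 rose with TSA and none fell, where 30.6% of all genes were called higher and 28.4% lower. Hspa1a and Hspa1b, the stress-inducible chaperones, rose by 3.19 ± 0.20 and 2.31 ± 0.17 (limma adjusted p = 4.79e-09 and 2.09e-08), and since the 2 genes are nearly identical their probe sets may share transcripts. Cct2 and Cct4, subunits of the chaperonin that folds cytoskeletal proteins, rose by 0.54 ± 0.098 and 0.44 ± 0.081 (limma adjusted p = 0.000253 and 0.000273). The median log2 change of the 15 was 0.34, against 0.0013 over all genes. None of the 15 was called with LY294002, UO126 or SB202190, where 9.47%, 3.45% and 3.52% of all genes were called.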

How the data were processed

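RNA of 15 samples was hybridized to Affymetrix MOE 430 2.0 arrays. The deposited values are MAS5 signal intensity on a linear scale, which the authors scaled per array to a 2%-trimmed mean of 150. Such values are not counts. The 3 arrays per group limit the precision. Signals under 1 were set to 1 and log2 was taken. A total of 64 control probe sets were left out, and 21765 of the others had a mean of 50 or more in at least 1 group and were tested. limma 3.58.1 (R 4.3.3) was fitted over the 5 groups with a variance trend, two-sided. The study states 3 independent experiments for DMSO and LY294002. For UO126, SB202190 and TSA the sources used here do not, and the spread between their arrays may be technical. The 5 groups share their estimate of the spread. All p values, those of LY294002 included, therefore rest in part on these arrays. Same-numbered arrays deviated together with r above 0.1 in every pair for LY294002 (0.43, 0.16 and 0.30) and UO126 (0.42, 0.24 and 0.22) against DMSO and for TSA against SB202190 (0.15, 0.14 and 0.19). The main fit held no term for the replicate number in any comparison, and a block of this number was an alternative only. The fit was tested on simulated data drawn independently for each array. These held no part shared by arrays of the same number, so that the test does not cover such sharing. Alternatives were another scaling, filter, floor, fold threshold, probe set rule, fit and each array left out. Gene symbols come from the platform annotation, and 48 genes matched RefSeq. Genes named were those called, the catalytic and activator subunits and the listed partners. The likeness of other genes to the core mean is not reported, since the TSA arrays form a cluster apart. The members and the lists were chosen with earlier results of these data known.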

Additional observations from a re-analysis of the deposited data

How the results depend on the processing

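The median log2 change of the proteasome genes moved by less than the spread between replicates in all 4 comparisons with DMSO under all alternatives, and without each array in turn it was 0.098 to 0.17 with TSA, -0.23 to -0.12 with LY294002, -0.038 to 0.034 with UO126 and -0.028 to 0.040 with SB202190. The 6 genes called with LY294002 became 13 with quantile normalization, 13 with the replicate block, 0 in a fit of the 2 groups alone, 0 by a 1.4-fold ratio of mean signals (10.3% of all genes) and 0 to 8 without 1 array, the lowest without LY294002 array 2. The 1 gene called with UO126 became 2 with the block, 2 when the probe sets of each gene were averaged and 0 with a filter of 50 in 2 of 5 groups, in a fit of the 2 groups or by a 1.4-fold ratio. With a mean signal of 100 over all arrays, or signals under 50 set to 50, the 1 gene called was Psme4, which was higher, in place of Psmb9. With SB202190 1 gene, Psme2 with Psme2b, was called with the block and 1 with the mean of all probe sets. By a 1.4-fold ratio of mean signals, 10 genes were past the threshold for TSA against DMSO (21.3%, against 48.1% of all genes), 16 against LY294002 (33.3% against 46.7%, below the share of all genes, unlike the calls of limma), 11 against UO126 (23.4% against 48.5%) and 8 against SB202190 (17% against 45.8%), and without 1 array the calls were 19 to 21, 25 to 31, 18 to 21 and 16 to 18. With the mean of all probe sets the estimate turned for Psma1 with UO126 (-0.33, limma adjusted p = 0.0463) and for Psmd13 with TSA (-0.029, limma adjusted p = 0.853). Without Psmd4, a choice made after seeing the data, the mean log2 change of the regulatory particle with TSA went from 0.12 to 0.057. The cause was not tested in any of these. For every one of the 15 arrays the mean correlation with arrays of the other groups was highest for its own number, a hint from the data and not from the design. The block moved no other count by over 1.5 times. Changes at signals under 50, as for Psmb8 and Psmb9, are limited by the array's background.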
